A study of Mus musculus with 3 samples.

Results

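The genes described here belong to the families that hold the core cell cycle engine. These families are the cyclins, the cyclin-dependent kinases (CDKs), the CDK inhibitors, the E2F and DP transcription factors and the retinoblastoma (Rb) family. The genes were chosen by gene symbol from the platform's probe table, using probe sets assigned to 1 gene. This gave 67 probe sets for 64 of the 20755 genes tested. RefSeq lists 67 genes under the same symbols, and the other 3, Ccnb1, Ccne2 and Ccnf, were not analysed here because the table assigns no probe set to any of them alone. RNA from 3 replicate cultures was hybridized to 1-colour arrays, 1 per culture, and the 3 cultures form a single group. The cultures came from the medial ganglionic eminence (MGE), the ventral forebrain zone that produces many GABAergic interneurons, of wild-type CD-1 mouse embryos at embryonic day 13. Every culture was grown with FGF2, a mitogen, at 40 ng/ml and received cytosine arabinoside (AraC), a nucleoside analogue that kills cells in DNA synthesis, at 1 µM for 24 h from day 5, followed by 2 more days after washout. No culture without AraC and no unpurified tissue is part of the series, so no gene can be called higher or lower because of the treatment.

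As background, cell division is driven by kinases that act only when bound to a cyclin. D-type cyclins with Cdk4 or Cdk6 begin the phosphorylation of Rb and its relatives, which frees E2F factors to switch on genes of DNA synthesis, cyclins E and A with Cdk2 carry the cell through S phase, and cyclins A and B with Cdk1 drive mitosis. The INK4 inhibitors block Cdk4 and Cdk6, and the CIP/KIP inhibitors bind a wider range of cyclin-CDK pairs. Some members have other duties: Cdk5 is activated by non-cyclin proteins and works in postmitotic neurons, and a further set of cyclins and CDKs serves RNA polymerase II and splicing.

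The promoters of 2 mitotic members and of 2 members of the Rb and E2F circuit are shown. They hold letters that match elements known from the regulation of cell cycle genes. Each is the 100 bases before the RefSeq start site in GRCm38.p6, on the minus strand and written 5′ to 3′, with capitals marking the motifs searched on either strand: the E2F motifs TTTCCCGC and TTTGGCGC, the cell cycle homology region (CHR) TTTGAA and the NF-Y box CCAAT, which reads ATTGG on the opposite strand.
Cdk1 (chr10:69352913-69353012): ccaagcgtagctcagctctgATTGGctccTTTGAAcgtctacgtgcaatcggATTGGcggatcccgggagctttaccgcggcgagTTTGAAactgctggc
Ccnb2 (chr9:70421555-70421654): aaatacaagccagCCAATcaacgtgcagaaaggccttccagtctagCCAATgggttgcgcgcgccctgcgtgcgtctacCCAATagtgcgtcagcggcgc
E2f3 (chr13:29986064-29986163): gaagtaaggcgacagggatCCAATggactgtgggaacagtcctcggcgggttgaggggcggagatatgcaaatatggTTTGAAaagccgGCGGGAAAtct
Cdkn2a (chr4:89294620-89294719): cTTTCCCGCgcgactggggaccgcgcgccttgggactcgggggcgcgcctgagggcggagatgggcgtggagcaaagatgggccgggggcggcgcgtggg

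Promoter windows of 250 bases before to 50 bases after the start were held for 50 of the 64 genes, 59 windows in all. An E2F motif lay in 5 of the 59 (8.47%), those of Cdk2, Cdkn2a, E2f2, E2f3 and E2f7, against 1.56% of all 32851 windows. The CHR letters lay in 10 member windows (16.9%) against 17.9% of all windows, and CCAAT in 26 (44.1%) against 37.4%. Ccnb2 and Cdk1 were among 7 member windows (11.9%) that held both CHR and CCAAT, against 6.95% of all windows. In the Ccnb2 promoter the 3 CCAAT boxes began 87, 54 and 21 bases before the start, and a CHR began 167 bases before it and another at base 5 after it. These matches describe letters in the window and do not show binding.

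Nearly all of the measured members gave signal above background. The background line, at 6.26 log2 units, was the 95th percentile of the mean signals of chemosensory receptor probe sets (odour, pheromone and bitter taste receptors), and a gene was called when limma's moderated 1-sided test that its 3-culture mean exceeded this line had a Benjamini-Hochberg adjusted p under 0.05 over all probe sets tested. On this rule 60 of the 64 members (93.8%) were called, where 63.4% of all genes tested were. With the line raised by 1 log2 unit, 55 were called, where 47.6% of all genes were. The exceptions were Ccnb3, Ccno, Cdk15 and E2f2. The counts describe the members beside all genes, and they were not tested as a set. Because hybridization strength varies from probe set to probe set, signals are compared between cultures for 1 gene, never between genes. All values below are log2 signals in cultures 1, 2 and 3, in that order, and means carry the SD over n = 3 cultures. In whole cultures, fewer cells of a type and less RNA per cell cannot be told apart.

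**Figure D1:**
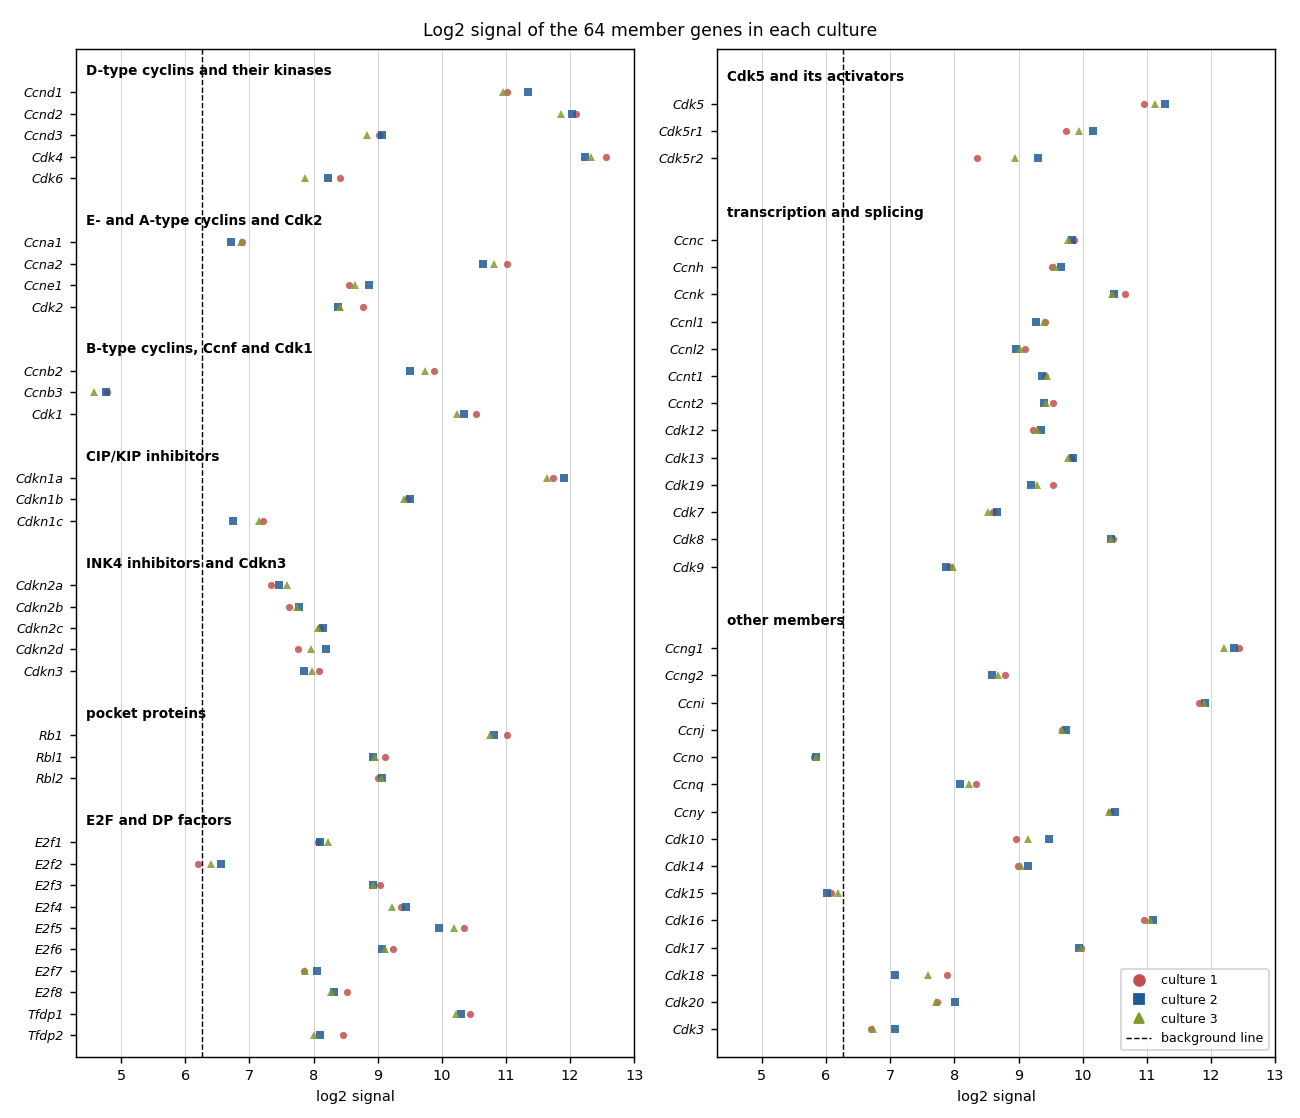
Log2 signal (x axis) of each of the 64 member genes (y axis, grouped by role) in cultures 1 (circles), 2 (squares) and 3 (triangles), with the background line at 6.26 (dashed). All 3 cultures lay below the line for Ccnb3, Ccno and Cdk15, E2f2 straddled it, and the other 60 genes lay above it in every culture.

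The cell type markers help to place the differences between cultures. All 8 neuronal and all 8 MGE interneuron markers were called, and so were all 8 progenitor and radial glia markers, all 5 oligodendrocyte precursor markers and 5 of 6 astrocyte markers. The cultures, labelled as purified interneurons, thus also held RNA of progenitor and glial genes. All 8 interneuron markers were lowest in culture 1, and 7 of the 8 were highest in culture 2. The neuronal markers were less uniform, with 6 of 8 lowest in culture 1 and 4 of 8 highest in culture 2. All 8 progenitor and all 6 astrocyte markers were highest in culture 1, as were 4 of 5 oligodendrocyte precursor markers. Over all genes tested, 38.9% were lowest in culture 1, 44.3% highest in culture 2 and 33.2% highest in culture 1. Over all genes called these shares were 43.75%, 52.1% and 32.4%. The 4 of 8 neuronal markers highest in culture 2 were thus near the share over all genes. The mean level of the astrocyte list was 8.99, 7.99 and 8.64 in cultures 1, 2 and 3, that of the progenitor list 10.71, 10.26 and 10.43, and that of the interneuron list 10.20, 10.64 and 10.53. With the line raised by 1 unit, 8 of 8 neuronal and 8 of 8 interneuron markers were called. So were 7 of 8 progenitor, 5 of 5 oligodendrocyte precursor and 4 of 6 astrocyte markers. Microglia (3 of 6 at the main line), endothelium (4 of 5), pericytes and fibroblasts (3 of 6) and cortical glutamatergic neurons (1 of 6) had none called at the raised line. Of all genes tested, 63.4% were called at the main line and 47.6% at the raised line.

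The D-type cyclins and their kinases, which receive the mitogen signal at the start of G1, were all called, and all 5 kept the call with the raised line. Ccnd1, the cyclin D that growth factor signals induce in many cells, was at 11.01, 11.34 and 10.95 (11.10 ± 0.21, adjusted p = 2.33e-06). Ccnd2, a cyclin D of neural progenitors, was at 12.09, 12.03 and 11.85 (11.99 ± 0.13). Ccnd3 was at 9.02, 9.06 and 8.83 (8.97 ± 0.12). Culture 3 was the lowest of the 3 for each cyclin D. Ccnd1 and Ccnd3 were highest in culture 2, by a wider margin for Ccnd1. Cdk4 was at 12.56, 12.23 and 12.32 (12.37 ± 0.17), and Cdk6, the partner kinase that can replace it, was at 8.42, 8.22 and 7.87 (8.17 ± 0.28). Both kinases were highest in culture 1, and the 0.54 log2 units that separated cultures 1 and 3 for Cdk6 made it 1 of 4 members that spanned more than 0.5.

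Cyclin E, the cyclins A and Cdk2, which act at the entry into and passage through S phase, were called for all 4 genes measured. Ccne1 was at 8.55, 8.86 and 8.65 (8.68 ± 0.16, adjusted p = 8.91e-06), highest in culture 2. Ccna2, the cyclin A of dividing somatic cells, was at 11.02, 10.64 and 10.80 (10.82 ± 0.19). Cdk2 was at 8.77, 8.37 and 8.41 (8.52 ± 0.22). Ccna2 and Cdk2 thus ran the other way from Ccne1, with culture 1 highest. Ccna1, the cyclin A best known from the male germ line, was at 6.89, 6.72 and 6.87 (6.83 ± 0.09, adjusted p = 0.000612), and its call did not hold with the raised line or at the 99th percentile of the receptor probe sets (adjusted p = 1 for both).

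The mitotic pair was well above background. Cdk1, the kinase that starts mitosis, was at 10.54, 10.35 and 10.23 (10.37 ± 0.16, adjusted p = 2.04e-06). Ccnb2, a mitotic B-type cyclin, was at 9.88, 9.51 and 9.74 (9.71 ± 0.19, adjusted p = 4.29e-06). Both were highest in culture 1, while the lowest was culture 3 for Cdk1 and culture 2 for Ccnb2. Ccnb3, a cyclin known for its role in meiosis, was at 4.77, 4.77 and 4.57 (4.70 ± 0.11, adjusted p = 1), and all 3 cultures lay under the line.

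Genes that act beside these members in mitosis and S phase were called as well. All 20 genes of a G2/M list, Mki67, Top2a, Plk1 and Aurkb among them, were above background, where 63.4% of all genes tested were. Of the 20, 16 were highest in culture 1, where 33.2% of all genes tested were highest. Of 19 measured genes of a G1/S list, which holds the Mcm2 to Mcm7 helicase subunits and Pcna, the clamp of the DNA polymerases, 18 were called, and Gins1, a replication helicase factor (6.23 ± 0.09, adjusted p = 1), was not. At the 90th percentile of the receptor probe sets all 19 were called. In the G1/S list 8 genes were highest in culture 1 and 10 in culture 2. Culture 1 minus culture 2 had a median of 0.19 log2 units over the G2/M list, -0.0035 over the G1/S list and -0.02 over all genes tested. Since progenitor and astrocyte markers were also highest in culture 1, their part in this order was not tested.

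The CIP/KIP inhibitors, which restrain cyclin-CDK complexes when cells leave the cycle or are damaged, were all called. Cdkn1a (p21), a target of p53, was at 11.73, 11.90 and 11.63 (11.75 ± 0.13, adjusted p = 1.37e-06). Cdkn1b (p27), which holds many differentiating cells out of the cycle, was at 9.46, 9.50 and 9.41 (9.46 ± 0.04), so the 3 cultures lay within 0.09 log2 units. Cdkn1c (p57), an imprinted inhibitor of progenitors as they leave the cycle, was at 7.21, 6.75 and 7.15 (7.04 ± 0.25, adjusted p = 0.00186). Culture 2 was the lowest for Cdkn1c, and its call did not hold with the raised line or at the 99th percentile (adjusted p = 1 for both).

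The INK4 inhibitors, which bind Cdk4 and Cdk6, were all called too. Cdkn2a, the locus of p16 and p19Arf, was at 7.33, 7.46 and 7.59 (7.46 ± 0.13, adjusted p = 6.8e-05), and the test missed the threshold with the raised line (adjusted p = 0.0524, the range over the alternatives being 8.25e-06 to 0.0565). The array value does not separate its products. Cdkn2b (p15) was at 7.62, 7.77 and 7.74 (7.71 ± 0.08), and Cdkn2c (p18) was at 8.11, 8.15 and 8.07 (8.11 ± 0.04). Cdkn2d (p19Ink4d), which is kept on in postmitotic neurons, was at 7.76, 8.19 and 7.96 (7.97 ± 0.21). It was lowest in culture 1 and highest in culture 2, like most interneuron markers and 28.8% of all genes tested. Cdkn3, a phosphatase that acts on CDKs, ran the other way at 8.08, 7.85 and 7.98 (7.97 ± 0.12).

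The pocket proteins, which hold E2F factors in check, were called for all 3 genes. Rb1 was at 11.01, 10.81 and 10.74 (10.86 ± 0.14) on 1 probe set and at 6.88, 7.01 and 6.82 (6.90 ± 0.10) on the other. Both probe sets were called (adjusted p = 1.54e-06 and 0.000423), but the highest culture was 1 on the first and 2 on the second, and only the first passed with the raised line. Rbl1 (p107), which is most abundant in cycling cells, was at 9.12, 8.93 and 8.96 (9.01 ± 0.10). Rbl2 (p130), the pocket protein of resting cells, was at 9.0, 9.06 and 9.05 (9.04 ± 0.03), so its cultures lay within 0.06 log2 units.

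Among the E2F and DP factors 9 of 10 were called. The activators, which switch on S phase genes, were split. E2f1 was at 8.07, 8.10 and 8.22 (8.13 ± 0.08) and E2f3 at 9.04, 8.93 and 8.93 (8.97 ± 0.06). E2f2 was at 6.20, 6.55 and 6.40 (6.38 ± 0.18, adjusted p = 0.18), with culture 1 under the line and the other cultures over it. Without culture 1 the test passed for E2f2 (adjusted p = 0.0447), and at the 90th percentile it passed with all cultures (0.00198). Over the alternatives its adjusted p ran from 0.00198 to 1, so its call changes with culture 1 and with where the line is drawn.

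The repressor E2F factors were all called, both those that work through pocket proteins and those that do not. E2f4, the main partner of p130 in resting cells, was at 9.36, 9.44 and 9.22 (9.34 ± 0.11), and E2f5 was at 10.35, 9.95 and 10.19 (10.16 ± 0.20). E2f6, which represses without pocket proteins, was at 9.24, 9.07 and 9.12 (9.14 ± 0.09). The atypical repressors, which are themselves switched on in S phase, were at 7.85, 8.05 and 7.87 for E2f7 (7.92 ± 0.11) and at 8.52, 8.32 and 8.27 for E2f8 (8.37 ± 0.13). E2f5, E2f6 and E2f8 were highest in culture 1, and E2f4 and E2f7 in culture 2. The DP partners, with which most E2Fs bind DNA, were at 10.44, 10.30 and 10.22 for Tfdp1 (10.32 ± 0.11) and at 8.47, 8.11 and 8.0 for Tfdp2 (8.19 ± 0.24), with the same order of cultures.

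**Figure D2:**
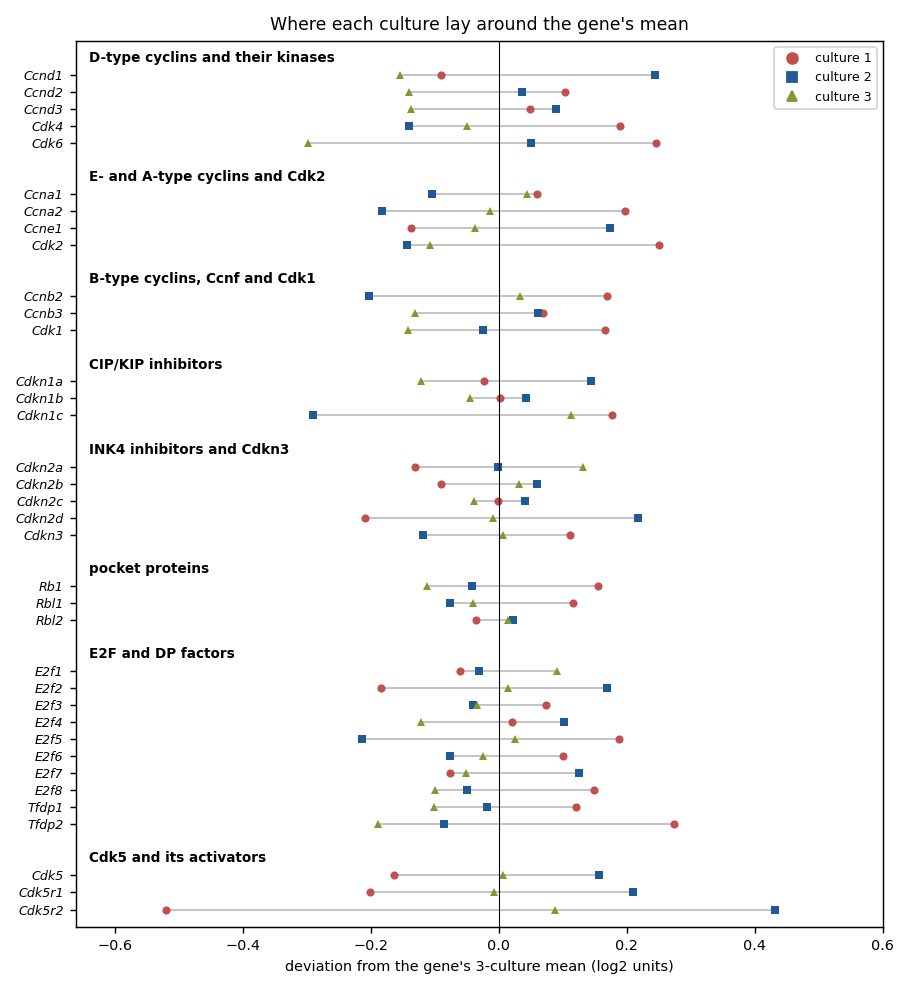
Deviation of each culture (circles, squares and triangles for cultures 1, 2 and 3) from the gene's 3-culture mean in log2 units (x axis), for the members from D-type cyclins to Cdk5 (y axis); the grey bar joins the lowest and the highest culture. Cdk5, Cdk5r1 and Cdk5r2 have culture 1 at the low end and culture 2 at the high end, and Ccna2 and Ccnb2 the reverse. Other members share each order, among them Ccne1, Cdkn2d and Rbl2 the first and Cdk4, Cdkn3 and Rbl1 the reverse.

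Cdk5 and its activators, which control migration, neurite growth and synaptic function in neurons, were all called and had the same order of cultures. Cdk5 was at 10.96, 11.28 and 11.13 (11.12 ± 0.16, adjusted p = 1.62e-06). Cdk5r1 (p35), the activator that anchors Cdk5 to membranes, was at 9.74, 10.15 and 9.94 (9.94 ± 0.21). Cdk5r2 (p39), a second activator, was at 8.35, 9.30 and 8.95 (8.87 ± 0.48, adjusted p = 0.000171). For each of the 3 genes culture 1 was lowest and culture 2 highest, also after quantile normalization and after median centring of the columns. The same lowest and highest cultures were found in 17 of the 64 members, in 28.8% of all genes tested and in 35.1% of all genes called, so this order is a common one. Cdk5r2 spanned 0.95 log2 units, the widest range of any member.

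The median deviation of the Cdk5 group from the gene's own mean was -0.20, 0.21 and 0.01 log2 units in cultures 1, 2 and 3, and the value near 0 of culture 3 changed sign after median centring (-0.0045). For the MGE interneuron markers it was -0.21, 0.16 and 0.07, and for the neuronal markers -0.17, 0.10 and 0.02. Ccnb2 deviated by 0.17, -0.20 and 0.03 and Cdk1 by 0.17, -0.02 and -0.14, and the value of Cdk1 in culture 2 changed sign after median centring (0.01). These mitotic genes thus shared the high value in culture 1 but not the order of cultures 2 and 3. For Ccne1, Ccna1, Ccna2 and Cdk2 the median deviation was 0.13, -0.12 and -0.03, while Ccne1 itself deviated by -0.14, 0.17 and -0.04. The astrocyte markers gave 0.48, -0.54 and 0.07 and the progenitor markers 0.23, -0.20 and -0.05. Over all genes tested the medians were -0.01, 0.02 and -0.01. Each culture is 1 array, so these shifts are a description with no test, and the part of the cell makeup in the members' order was not tested.

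**Figure D3:**
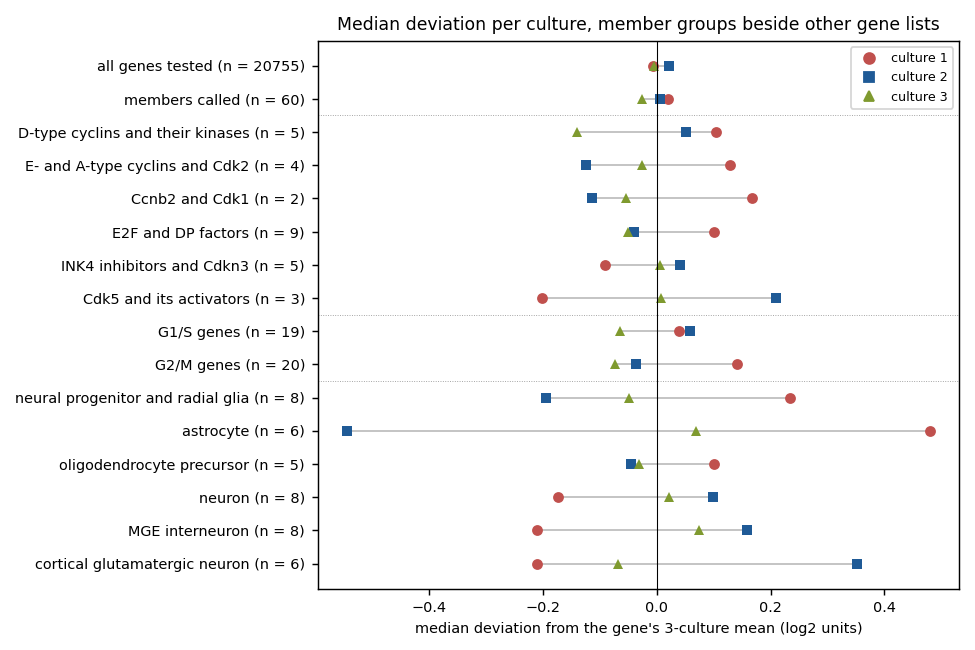
Median deviation per culture (circles, squares and triangles for cultures 1, 2 and 3) from the gene's 3-culture mean in log2 units (x axis) for groups of called members, 2 cell cycle lists and 6 marker lists (y axis, with the number of genes). Culture 1 lies at the high end for the D-type, the cyclin E and A and the E2F and DP groups. The same holds for Ccnb2 and Cdk1, the G2/M list and the progenitor, astrocyte and oligodendrocyte precursor markers. Culture 1 lies at the low end for the Cdk5 and INK4 groups and the neuronal, interneuron and cortical glutamatergic markers. The marker lists include genes not called, and only 1 of the 6 cortical glutamatergic markers was called. In the INK4 group, which includes Cdkn3, 3 of 5 genes were lowest in culture 1, while Cdkn3 was highest there. Within the cyclin E and A group, Ccne1 had culture 1 lowest, and within the D-type group Ccnd1 and Ccnd3 had culture 2 highest. After median centring of the columns, the D-type median was slightly higher in culture 2 than in culture 1.

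The cyclins and CDKs of transcription and splicing had the lowest median SD of the 10 groups of members, at 0.07 log2 units. It was 0.11 for all members, 0.13 for all genes tested and 0.12 for all genes called. All 13 were called and kept the call with the raised line, among them Cdk9, the elongation kinase (7.93 ± 0.05), and Ccnk, the partner of Cdk12 and Cdk13 (10.53 ± 0.11). Cdk8, a kinase of the Mediator complex, was at 10.47, 10.44 and 10.44 (10.45 ± 0.02). Cdk19, its close relative, differed more, at 9.54, 9.20 and 9.29 (9.34 ± 0.17). Ccnl2, a cyclin of splicing, was called on both of its probe sets, but on the second (7.01, 6.45 and 7.0) the call was lost without culture 1 (adjusted p = 0.0728) and without culture 3 (0.0813).

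Of the other 15 members 13 were called. Ccno, a cyclin needed by cells that form many cilia, was at 5.82, 5.85 and 5.84 (5.83 ± 0.02, adjusted p = 1), and Cdk15 was at 6.08, 6.01 and 6.19 (6.09 ± 0.09, adjusted p = 1), with every culture under the line. At the 90th percentile Cdk15 passed (adjusted p = 0.00729). Cdk3, a kinase tied in human cells to the exit from rest, was at 6.70, 7.08 and 6.73 (6.84 ± 0.21, adjusted p = 0.00321), and it did not pass with the raised line (adjusted p = 1).

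Among these 15, Cdk18 and Cdk10 differed most between the cultures. Cdk18, a kinase of the PCTAIRE family, was at 7.89, 7.07 and 7.59 (7.52 ± 0.42, adjusted p = 0.00155). Its order, culture 1 highest and culture 2 lowest, was that of 5 of the 6 astrocyte markers. Other members had this order too, among them Cdk4, Cdk2, Ccna2 and Ccnb2. Of all genes tested, 33.2% were highest in culture 1 and 32.5% lowest in culture 2. The share of genes with both was not counted, so how common this order is cannot be given. The call of Cdk18 was lost at the 99th percentile (adjusted p = 0.0736, the range over the alternatives being 0.00014 to 0.231). Cdk10 was at 8.96, 9.47 and 9.15 (9.19 ± 0.26), the opposite order. Ccnq, the cyclin that activates Cdk10, was at 8.34, 8.08 and 8.23 (8.22 ± 0.13) on 1 probe set, and its second probe set (7.11, 6.93 and 6.77) put culture 3 lowest. The kinase and its cyclin thus had opposite orders of cultures 1 and 2. Ccng1, a p53 target like Cdkn1a, was at 12.44, 12.36 and 12.20 (12.33 ± 0.12).

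The remaining called members of this group were Ccng2, Ccni, Ccnj, Ccny, Cdk14, Cdk16, Cdk17 and Cdk20. Their SDs ran from 0.02 for Cdk17, another PCTAIRE kinase, to 0.17 for Cdk20, a kinase linked to cilia. Across all 64 members 4 (6.25%) spanned more than 0.5 log2 units between cultures, namely Cdk5r2, Cdk18, Cdk6 and Cdk10. Of all genes tested 13.8% did, and of the 13152 genes called 1578 did. In 31 members the highest culture was 1, in 28 it was 2 and in 5 it was 3. The shares highest in those cultures were 33.2%, 44.3% and 22.5% of all genes tested. Among all genes called they were 32.4%, 52.1% and 15.5%. After quantile normalization the member counts were 34, 22 and 8, and after median centring 27, 32 and 5. Shares over all genes under these scalings are not given here.

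Regulators that act on these members were also above background. A list of CDK phosphatases and kinases, ubiquitin ligase parts, MuvB and Myb factors, Myc and Id genes held 41 genes, with 37 measured. Of these 37, 36 were called at the main line and 31 with the raised line. Over all genes tested the shares called were 63.4% and 47.6%. Cdc25a, Cdc25b and Cdc25c, the phosphatases that activate CDKs, and Wee1, the kinase that opposes them, were all called, as were Cks1b and Cks2, small subunits of CDK complexes. Cks2 was at 10.89, 10.44 and 10.48 (10.60 ± 0.25), highest in culture 1 like Cdk1. Mycn (6.49 ± 0.28, adjusted p = 0.1), a Myc factor of neural progenitors, was the only one not called, and it was at 6.21, 6.77 and 6.49. All 37 genes, Mycn included, were called at the 90th percentile and also without culture 1.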

How the data were processed

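The members and gene lists were chosen with earlier results of these data known. The values are the log2 signals that the authors deposited, made with oligo and RMA per the submitters' processing notes; the sources used here give no versions or settings. The medians of the deposited columns were 6.57, 6.52 and 6.56, and quantile normalization and median centring were among the alternatives. An array has no read depth, and precision is limited by having only 3 of them. Nothing in the labels beyond biological replicate says how the cultures were separated.

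Of 41345 probe sets, 23521 carry 1 gene symbol, 1814 several and 16010 none. All 67 member probe sets matched RefSeq (GRCm38.p6) by gene identifier. A gene with several probe sets was called if any was, and is shown by the one with the highest mean. limma 3.58.1 in R 4.3.3 fitted an intercept to 22086 probe sets, with 1435 receptor probe sets as background, and was tested on simulated data. Each of groups D-type cyclins to Cdk5 is given gene by gene; of the other members, those not called, those whose probe sets or calls differed, and the 3 with the largest SD are named by rule, and further ones were named after their values were seen. Motifs were counted in RefSeq promoters with Python 3.11.15. A planned comparison of protein sequences was not run. The 12 alternatives to the call are in the closing section.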

Additional observations from a re-analysis of the deposited data

How the results depend on the processing

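Of the 12 alternatives to the call, 7 left every one of the 64 member calls as it was: every culture above the line with no test, limma's prior with a trend on intensity, quantile normalization, median centring, the mean over a gene's probe sets, and leaving out culture 2 or culture 3. Leaving out culture 1 added the call of E2f2, and the 90th percentile those of E2f2 and Cdk15. The number of members called was 60 with all cultures, 56 at the 99th percentile, 62 at the 90th, 55 with a line from keratin-associated, defensin and similar families (7.27), 55 with a line raised by 1 log2 unit, and 60 to 61 with a culture left out. The calls lost were those of Ccna1, Cdkn1c, Cdk3 and Cdk18 at the 99th percentile, and these and Cdkn2a with the other families and the raised line. The median deviation of the members ran from -0.0045 to 0.04 log2 units in culture 1, from -0.02 to 0.05 in culture 2 and from -0.03 to -0.01 in culture 3 over the scalings and with called members only. Members close to the line are limited by signal over background. No paired analysis was possible because the 3 cultures form 1 group.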
